A study of Mus musculus with 6 samples.

Results

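The aggrecan gene, Acan, held more Jun peaks (63) than any other window of its length laid end to end along mouse chromosome 7 from the gene start. When such windows slid in steps of 10 kb, 1 elsewhere on the chromosome held more (70). Neither ranking was repeated with midpoints within 1000 bp merged, which left 20 regions in the gene. Jun is a subunit of AP-1, a transcription factor dimer of Jun and Fos proteins, and its binding was mapped by ChIP-seq in enzyme-digested rib chondrocytes of wild-type, untreated ICR mice at postnatal day 1. The peaks described here are the rows of the deposited Jun peak list whose midpoint lies between positions 86100001 and 86320000 of chromosome 7 on the genome build mm9. These were 98 of 5793 peaks on the chromosome and of 99162 in the list. The 220 kb window holds Acan, which lies on the plus strand from about 86198000 to about 86260000, with 98 kb before it and 60 kb after it. Both gene ends are approximate, so distances from them are good to about 1 kb, and they were not checked against an mm9 annotation.

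The list belongs to 1 Jun library, prepared from 20000000 cells beside 1 input DNA library from cells of the same kind. The 4 RNA-seq libraries of the series, sorted rib chondrocytes of Swiss Webster Col10a1mCherry mice, were not analysed here. There was no ChIP replicate, no score and no read depth, so no value below has a replicate error and none was tested. Intervals given below cover counting error only, and they treat neighbouring peaks as independent.

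Aggrecan is the large proteoglycan of cartilage: its core protein carries chains of chondroitin sulfate and keratan sulfate, binds hyaluronan together with link protein, and holds the water that lets cartilage resist compression. Chondrocytes transcribe Acan strongly, and Sox9, with Sox5 and Sox6, drives that transcription through enhancers that include one well upstream of the gene. AP-1 is known in chondrocytes for its part in hypertrophy and in the expression of matrix-degrading enzymes. The study asked how Jun and Sox9 act at shared DNA targets as chondrocytes become hypertrophic, and Acan is a classical Sox9 target. Sox9 peaks were not analysed here, and no enhancer position was used, so no peak below is identified with a known enhancer.

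The RefSeq gene order on the later build GRCm38 places the long noncoding RNA genes Gm26633 and Gm31213 and then Isg20, which encodes an interferon-induced exonuclease, before Acan. After it come Hapln3, a hyaluronan and proteoglycan link protein, and Mfge8, a secreted glycoprotein that bridges apoptotic cells to phagocytes. Positions of these genes on mm9 were not used, so peaks in the flanks are not assigned to them.

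One peak lay at the gene start, which is why the promoter is shown. It ran from 86198124 to 86198207, was 84 bp wide, and its midpoint was 0.166 kb inside the approximate start. The sequence below is RefSeq's, on GRCm38.p6, plus strand, chr7:79052976-79053275. It gives 250 bases before the annotated start in lower case and the 50 bases from the start in capitals. Counted from the approximate start, the peak midpoint lies past these 50 bases, so the sequence shown may not contain the peak.

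Acan promoter: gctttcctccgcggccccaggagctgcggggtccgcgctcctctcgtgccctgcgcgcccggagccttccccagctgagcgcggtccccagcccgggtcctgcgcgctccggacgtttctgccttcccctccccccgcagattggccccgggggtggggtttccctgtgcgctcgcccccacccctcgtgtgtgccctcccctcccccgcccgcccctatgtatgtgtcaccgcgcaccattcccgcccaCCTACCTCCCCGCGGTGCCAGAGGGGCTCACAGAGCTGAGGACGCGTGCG

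G and C made up 74.0% of these 300 bases, a share that 4.77% of the 32851 promoters in the same table reached or passed, against a median of 52.7%. The promoter held 31 CG dinucleotides, and 10.6% of promoters held at least as many. The AP-1 letters TGANTCA, searched on both strands, did not occur in it. They occurred in 7.81% of all promoters in the table. The related letters TGACGTCA, which do not contain TGANTCA, were also missing here and occurred in 1.79% of promoters. The Sox letters AACAAT and ACAAAG were likewise not found, against 10.7% and 18.7% of promoters. The GC box letters CCGCCC occurred 3 times, beginning 44, 40 and 7 bases before the start with the first pair overlapping, and were present in 35.7% of promoters. No match says only that these letters are not in this window of sequence. The sequence under the Jun peaks on mm9 was not used here.

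The whole Acan window was among the fullest of the chromosome. Its 98 peaks (exact Poisson 95% interval 79.6 to 119) compare with a mean of 8.49 and a median of 3 in the 678 windows of 220 kb that tile chromosome 7 end to end. Of those windows 0.295% held at least as many peaks, namely the Acan window itself and 1 with 108 peaks that begins at 124600001. The third held 72. Windows without any peak made up 35.3% of the total, and unsequenced stretches were not separated from them. With windows on all autosomes the share at or above the Acan count was 0.0459%. Windows on the other autosomes were laid from their first peak, so only Acan had a window fitted to its place.

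Most of the peaks lay within the gene. The gene body held 63 of the 98 peaks (64.3%), the upstream flank 23 (23.5%) and the downstream flank 12 (12.2%). Per 10 kb this came to 10.2 peaks in the gene body (Poisson 95% interval 7.81 to 13.0), 2.35 upstream (1.49 to 3.52) and 2.00 downstream (1.03 to 3.49). The gene body was thus 4.59 times as dense as both flanks together, 4.33 times as dense as the upstream flank and 5.08 times as dense as the downstream flank. Its counting interval did not overlap that of either flank, while those of the flanks overlapped each other. The size of this ratio depended on the peaks counted. With midpoints within 1000 bp merged it was 1.96, from 20, 16 and 10 regions in the gene body, upstream and downstream, and the interval of the gene body (1.97 to 4.98 regions per 10 kb) overlapped those of both flanks (0.933 to 2.65 upstream, 0.799 to 3.07 downstream). It was 2.14 in the first 50% of the list, where the intervals also overlapped, and 10.7 in the last 50%, where they did not.

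Each part was also set against windows of its own length on chromosome 7. The 63 peaks of the gene body were the highest count among 2408 windows of 62 kb, so that 0.0415% of these windows, 1 in number, reached it. The next windows held 50 and 45, and 50.7% held none. This order was not recomputed with close peaks merged or in parts of the list. The upstream flank, with 23 peaks, was matched or passed by 1.25% of the 1523 windows of 98 kb. The highest count among them, 73, was in the window that begins at the Acan gene start, and the highest in a window that does not touch the gene was 71 (from 124613608). The downstream flank, with 12 peaks, was matched or passed by 3.37% of the 2489 windows of 60 kb. Their highest count, 62, was likewise in a window inside Acan (from 86200001), followed by 61 in the window from 124600001. Both flanks were therefore also in the upper tail of the chromosome, but well below its fullest places, the Acan gene among them. These windows start at the ends of the Acan parts and may cut other dense places in pieces. When gene-length windows slid in steps of 10 kb, which was tried after seeing the data, a window from 124608000 to 124670000 held 70 peaks, and 2 of 14931 windows, the gene body among them, reached 63.

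**Figure D1:**
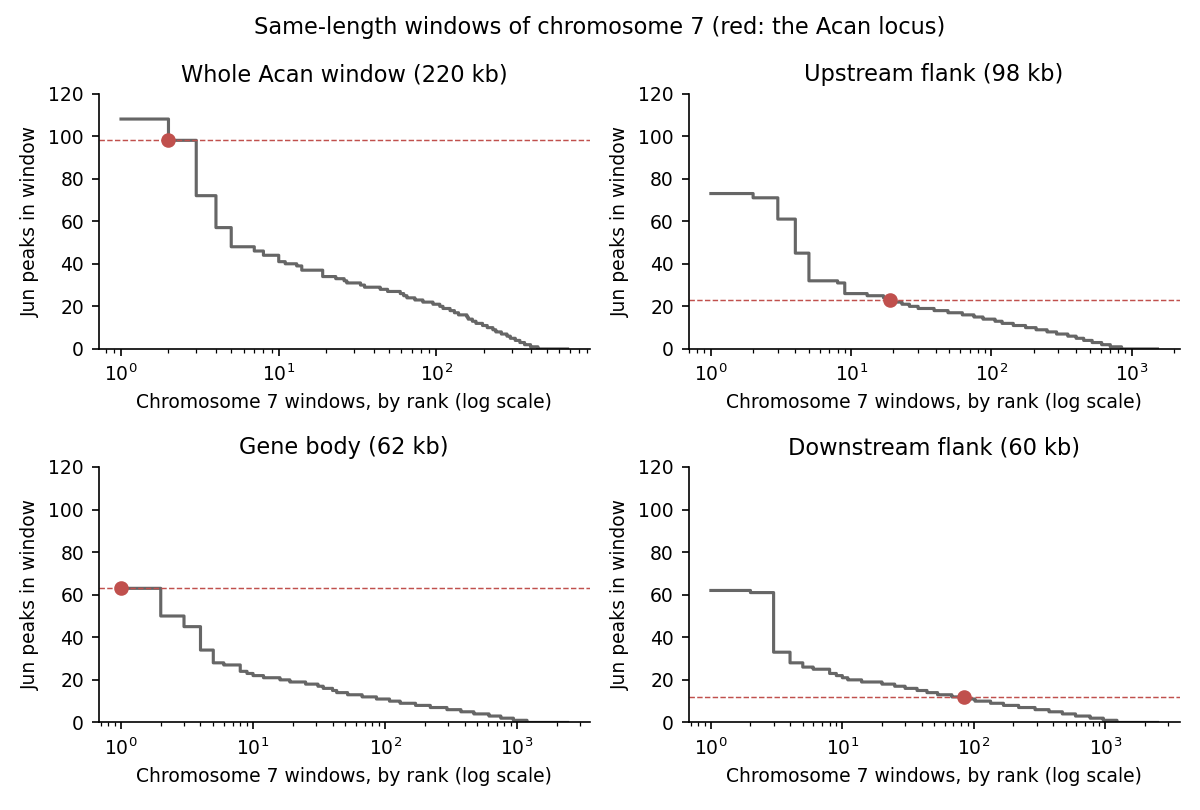
Each panel ranks the chromosome 7 windows of one length by their number of Jun peaks (y axis) on a logarithmic rank axis (x axis), with the Acan locus in red. Among windows laid end to end, the gene body, with 63 peaks, stands first at 62 kb and the whole window of 98 peaks second at 220 kb. The flanks of 23 and 12 peaks lie further down their curves.

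Along the gene the peaks were most frequent in its first 20 kb. Counted in bins of 10 kb from the gene start, the 6 whole bins inside the gene held 13, 15, 10, 9, 9 and 6 peaks. Close peaks are counted singly here: between 7.41 and 13.0 kb into the gene, 9 peaks lay within 5.62 kb. Bins were not counted with close peaks merged. The fullest bin, 10 to 20 kb into the gene, held 15 peaks, of which 5 were 200 bp or wider. The bin just before the gene start held none, and the last 10 kb before it were free of midpoints: the nearest upstream peak lay 10.2 kb before the start. The count thus stepped from 0 to 13 across the start. At the other end of the gene the bin from 60 to 70 kb held 5 peaks, and each later bin held 3 or fewer.

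**Figure D2:**
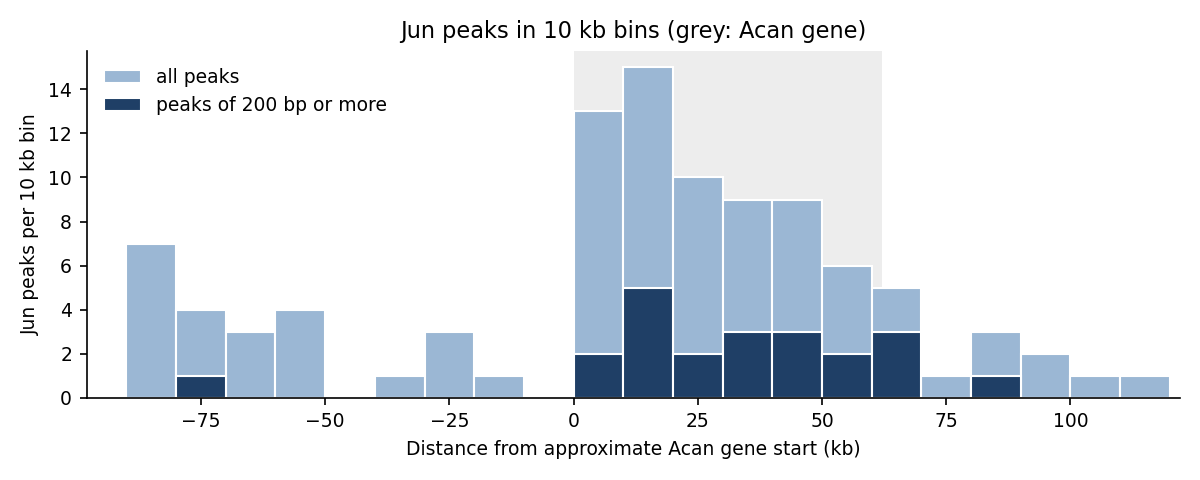
Number of Jun peaks (y axis) in bins of 10 kb, by distance from the approximate Acan gene start in kb (x axis), with the gene shaded. Light bars count all peaks and dark bars those of 200 bp or more: the bins inside the gene hold 6 to 15 peaks, and the bin before its start holds 0.

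The upstream flank fell into separate stretches. Beyond 50 kb before the gene there were 18 peaks, between 89.1 and 51.0 kb upstream. Then came 19.5 kb without a midpoint, the longest such stretch of the window, from the peak at 86146969 to the peak at 86166465. A further 5 peaks lay between 31.5 and 10.2 kb upstream. The next longest stretches were 11.8 kb and 11.4 kb, both in the downstream flank beyond 95 kb from the gene start.

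Peaks inside the gene lay close to each other. The median distance from a midpoint to the next was 706.5 bp in the gene body, 2201 bp in the upstream flank and 5359 bp in the downstream flank, against 5154 bp for the 5695 other peaks of chromosome 7. Of the gene body peaks 43 of 63 (68.3%, exact binomial 95% interval 55.3 to 79.4) had the next midpoint within 1 kb. The same held for 7 of 23 upstream peaks (30.4%) and 2 of 12 downstream peaks (16.7%), against 24.9% of the other peaks of the chromosome. The intervals of the upstream and downstream shares, 13.2 to 52.9% and 2.09 to 48.4%, included that of the chromosome. They are too wide to show that the shares are alike. Within 10 kb the next midpoint was found for all 63 gene body peaks and for 92 of the 98 peaks of the window (93.9%), against 63.2% of the others. Only 1 pair overlapped, the peaks from 86226074 to 86226475 and from 86226321 to 86226746.

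Chaining midpoints within 1 kb of each other gave 46 groups in the window, 29 of them lone peaks. The 6 groups with 5 or more peaks lay in the gene body without exception, and together held 39 peaks. The fullest ran from 86205359 to 86210978, 7.41 to 13.0 kb into the gene, with 9 peaks over 5.62 kb, the third rank among 4325 such groups on chromosome 7. The other 5 groups held 6 peaks each and spanned 2.39 to 3.49 kb, beginning at 86201438, 86214256, 86224362, 86227775 and 86237243. On the whole chromosome 48 groups held 5 or more peaks. With a distance of 10 kb, 73 peaks from the gene start to 86293937 formed 1 group over 95.8 kb, the second fullest of 2102 on the chromosome.

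Peak width varied more inside the gene than before it. Gene body peaks had a median width of 135 bp (order-statistic 95% interval 111 to 166) with quartiles of 82 and 214 bp, and ran from 21 to 764 bp. Upstream peaks had a median of 114 bp (108 to 131), quartiles of 106.5 and 133 bp and a range of 67 to 237 bp. Downstream peaks had a median of 177.5 bp (122 to 240) and ran from 60 to 475 bp. The other peaks of chromosome 7 had a median of 115 bp and quartiles of 88 and 154 bp. The medians of the gene body and the upstream flank were not separated by their intervals, and the difference lay in the spread.

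Both the widest and the narrowest peaks of the window lay in the gene. Peaks of 200 bp or more numbered 17 of 63 in the gene body (27.0%, exact binomial 95% interval 16.6 to 39.7), 1 of 23 upstream (4.35%, 0.110 to 21.9) and 4 of 12 downstream (33.3%, 9.92 to 65.1), against 15.0% of the other peaks of the chromosome. Peaks of 400 bp or more numbered 8 in the gene body and 1 downstream, 9.18% of the window, against 3.71% elsewhere on the chromosome. The 7 peaks narrower than 50 bp were all in the gene body, 11.1% of its peaks, against 6.60% elsewhere on the chromosome. Its interval of 4.59 to 21.6% includes that value. Peaks covered 18.1% of the gene body sequence, 2.91% of the upstream flank and 4.04% of the downstream flank.

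The widest peak, 764 bp from 86241559 to 86242322, lay 43.9 kb into the gene and had the third largest width of the whole list. Its neighbour to the left, from 86240680 to 86241159, measured 480 bp and ranked 4 by width in the window. The next in width measured 482 bp (from 86230356) and 481 bp (from 86203223), at 32.6 and 5.46 kb into the gene. Peaks of 453, 426, 402 and 401 bp followed inside the gene, at 34.8, 28.5, 28.3 and 16.5 kb. The 10 widest also included 2 downstream peaks, 475 bp wide from 86278035 and 372 bp wide from 86264589. No peak of the upstream flank was among them.

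Rows in the deposited list follow an order other than the genomic one, and no header or label says what it means. The place of a peak is therefore given as its row, or as a percentage of the 99162 rows, and is not read as strength. By place, the peaks within the gene and those before it were apart. Upstream peaks had a median place of 13.0% of the list (order-statistic 95% interval 7.25 to 29.9). Gene body peaks had a median of 62.8% (54.6 to 72.4), and the intervals did not overlap. Downstream peaks ranged from 0.590 to 96.9%, with a median of 37.3% (11.3 to 92.1). The other peaks of the chromosome had a median of 50.7%.

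In the first 10% of the list stood 9 of 23 upstream peaks (39.1%, exact binomial 95% interval 19.7 to 61.5), 1 of 63 gene body peaks (1.59%, 0.0402 to 8.53) and 2 of 12 downstream peaks (16.7%, 2.09 to 48.4). Among the other peaks of chromosome 7 it was 10.1%, above the interval of the gene body and below that of the upstream flank. The gene body share hangs on the approximate gene end. Both of these downstream peaks lay within 1 kb past it, at 0.45 and 0.60 kb, and the shares were not recomputed with the end moved. The window as a whole, with 12 of 98 (12.2%, 6.49 to 20.4), did not stand apart from that share. In the last 10% stood none of the upstream peaks, 10 of the gene body (15.9%, 7.88 to 27.3) and 4 downstream, against 10.2% elsewhere on the chromosome.

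**Figure D3:**
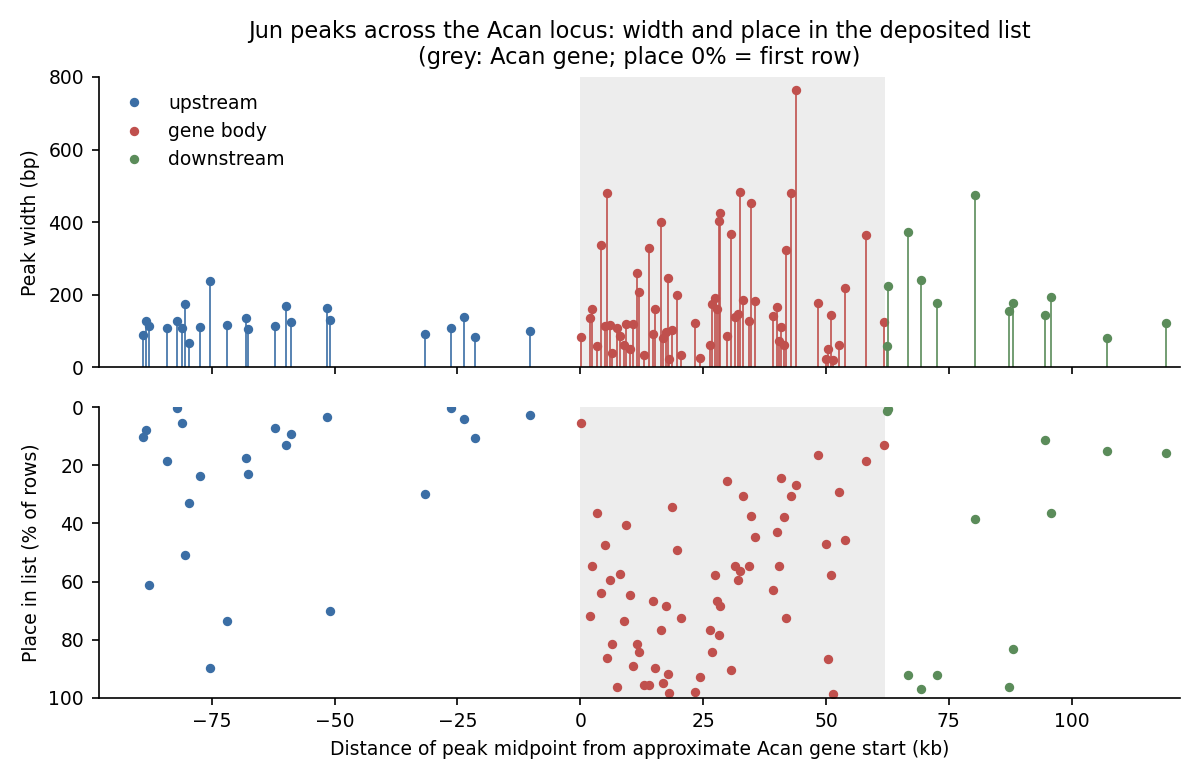
Width in bp (upper panel) and place in the list as a percentage of its rows, first row at the top (lower panel), of each of the 98 Jun peaks by distance from the approximate Acan gene start in kb; the gene is shaded. The widest peak of 764 bp lies 43.9 kb into the gene, and early places occur upstream and at both gene ends, while each peak deeper in the gene stands at 16.4% of the list or later.

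The early places lay outside the gene or at its ends. The earliest peak of the locus, row 295, was a 109 bp peak 26.3 kb upstream, from 86171694 to 86171802. Row 418 was a 129 bp peak 82.0 kb upstream, from 86115977 to 86116105. Rows 585 and 1418 were neighbours just past the gene end, a 224 bp peak from 86260484 to 86260707 and a 60 bp peak from 86260416 to 86260475. Row 2693 was the peak 10.2 kb upstream, from 86187741 to 86187841 and 101 bp wide.

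The next of the 10 earliest, rows 3289, 3934 and 5248, lay 51.5, 23.7 and 81.0 kb upstream. The peak at the gene start followed at row 5426, and row 7187 lay 62.1 kb upstream. Of the 5 peaks between 31.5 and 10.2 kb upstream, 3 stood in the first 10% of the list and the latest stood at 29.9%. The peak nearest to the gene end, from 86259744 to 86259869, stood at row 12935.

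Deeper in the gene no peak stood this early. Of the 61 gene body peaks more than 1 kb from both ends, none was in the first 10% of the list, and the earliest, from 86246274, stood at row 16277 (16.4%). That row is the earliest of these 61 peaks, so by construction none of them could stand before it, and counts before it do not measure how late they are. Of all peaks of the window, 19 stood before it: 12 upstream, 5 downstream and the 2 gene body peaks at the gene ends. Among the other peaks of the chromosome 15.8% stood before it. This stretch of the gene was set apart after its values were seen. Places within the gene also differed along its length. In the 6 whole bins of 10 kb from the gene start the median place was 59.4, 84.3, 74.6, 54.6, 37.8 and 51.8%, with no steady course from the start to the end. The 38 peaks of the first 30 kb had a median of 72.9% and the other 25 a median of 45.8%, a cut also chosen after the values were seen.

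**Figure D4:**
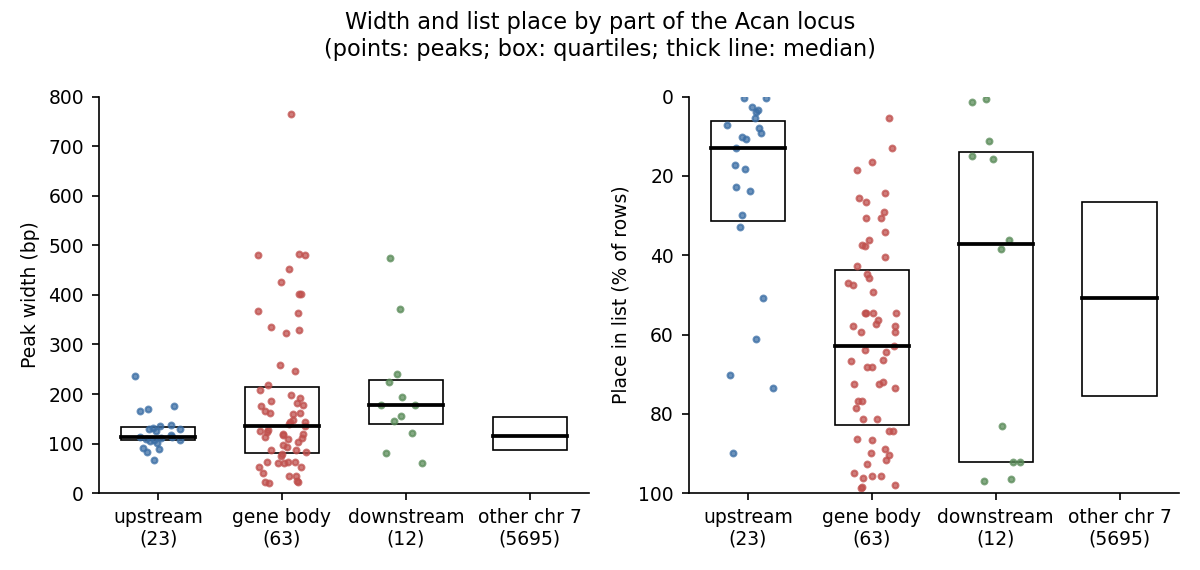
Width in bp (left) and place in the list as a percentage of its rows, first row at the top (right), of the 23 upstream, 63 gene body and 12 downstream peaks (points), with the quartiles (box) and median (thick line) of each part and of the 5695 other peaks of chromosome 7. Median place is 13.0% upstream and 62.8% in the gene body.

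Coefficients of place with width were small in the gene body. None has an interval, so a difference in sign between the parts cannot be read. Across the 63 gene body peaks Spearman's rho of row number with width was -0.13 and Pearson's r with log2 width was -0.17, across the 23 upstream peaks they were 0.091 and 0.32, and across the 12 downstream peaks 0.44 and 0.45. Over the whole window they were 0.091 and -0.0026, and across the 5695 other peaks of chromosome 7 they were 0.13 and 0.10. These are descriptions across peaks of 1 list, which share 1 library. The 8 gene body peaks of 400 bp or more and the 1 downstream stood between 26.6 and 86.4% of the list. The 7 peaks narrower than 50 bp stood between 47.0 and 98.7% with a median of 92.8%, and 4 of them were in the last 10%. Places of equally wide or narrow peaks elsewhere on the chromosome were not set beside these, so they are not read as traits of the locus.

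Some gene body peaks were also close to each other in the list. A peak within 20 rows of the list that also lies within 100 kb on the chromosome was found for 21 of 63 gene body peaks (33.3%, exact binomial 95% interval 22.0 to 46.3), for none of the 23 upstream peaks and for 1 of 12 downstream peaks, against 9.29% of the other peaks of chromosome 7. In 4 cases the rows were adjacent, as for rows 54152 and 54153 (peaks from 86238418 and 86232264). Dense places offer more such neighbours, so this share is set against dense windows below.

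The gene body resembled other dense places of the list in most of these measures. With windows of 62 kb on all autosomes, 19 held 40 or more peaks, a threshold chosen after seeing the data. The Acan gene body had the third highest count, after 2 windows with 65 peaks each on chromosomes 1 (from 92632843) and 4 (from 62927251). Windows on chromosome 7 were laid from the Acan gene start and those on other autosomes from their first peak. Other dense places may therefore be cut in pieces while Acan is not, which favours Acan in this order. Its median width of 135 bp compares with 97.5 to 217.5 bp in the other 18, and their median was 134 bp. Its share of peaks of 200 bp or more, 27.0%, was lower than their median of 33.7% and within their range of 14.3 to 52.4%.

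Its median place of 62.8% was close to the median of 62.7% over the 18 other windows, which ran from 20.2 to 77.6%. The share of peaks with a near neighbour in the list, 33.3%, compares with a median of 29.2% and a range of 7.14 to 45.2%. Its share in the first 10% of the list was the lowest of the 19, 1.59% against 2.17 to 26.2%. That order rests on 1 peak of 63 and on few peaks in the other windows, and it was not tested. It also hangs on the approximate gene end: 2 peaks in the first 10% of the list lay just past it, at 0.45 and 0.60 kb. In 15 of the 18 other windows the median place was later than the 50.7% of the other peaks of chromosome 7, and in 17 of the 18 the share of peaks of 200 bp or more was above the 15.0% of those peaks, so late places and wide peaks were shared by most dense windows.

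**Figure D5:**
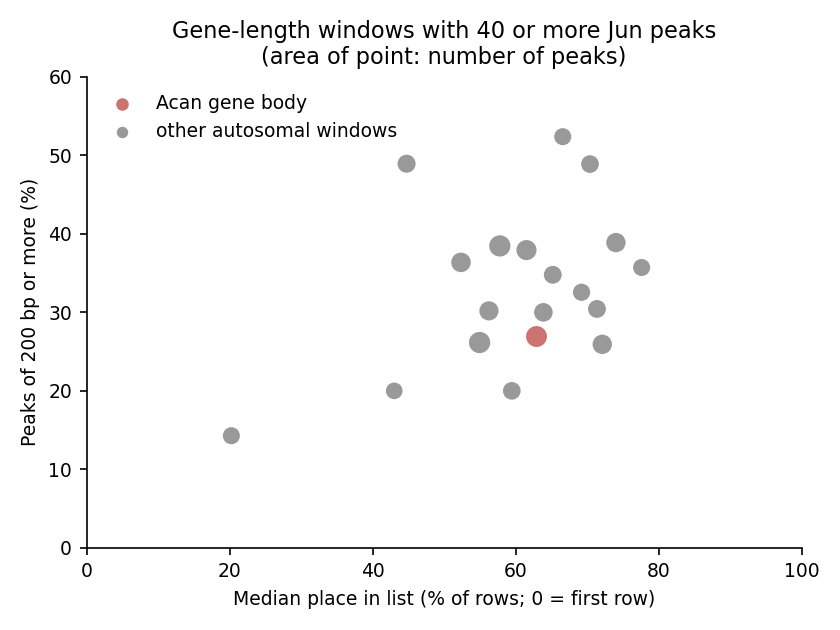
Share of peaks of 200 bp or more in percent (y axis) against the median place in the list as a percentage of its rows (x axis) for the 19 autosomal windows of 62 kb with 40 or more Jun peaks, the area of each point showing the number of peaks. The Acan gene body (red, 27.0% and 62.8%) lies among the other 18 windows.

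The window was cut at fixed positions. At its downstream edge the last peak inside, from 86317049 to 86317170, was 122 bp wide and stood at row 15683, and the first outside, from 86334811, was 126 bp wide and stood at row 34362, 14.9 kb beyond the edge. At the upstream edge the first peak inside, from 86108898 to 86108987, was 90 bp wide at row 10113. The last outside, from 86099183, was 149 bp wide at row 12258 and lay 0.744 kb before the edge. The 10 kb group that it belongs to began at 86083921, so the upstream stretch of peaks went on beyond the window.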

How the data were processed

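The authors deposited 1 list of Jun peaks with chromosome, start and end and no header, score or strand. The build is mm9, per the submitters' processing notes. Not given in the sources used here: aligner, peak caller, threshold and the use of the input library. The list was assigned to the Jun library because it is the 1 Jun ChIP sample among the 6. Per the labels' protocols, cells were fixed in 1% formaldehyde for 10 minutes, chromatin was sheared to 100 to 600 bp, 9 μg of antibody was used and libraries had 18 PCR cycles. Depth is unknown, so no peak has an interval of its own.

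Starts were counted from 1, and a peak was placed by its midpoint. Same-length windows were laid end to end from each Acan part within the span of the peaks of chromosome 7. Intervals are exact Poisson for counts, exact binomial for shares and order-statistic for medians, at 95% (scipy 1.17.1, pandas 2.3.3, numpy 2.4.6, Python 3.11.15). Window counting was checked on simulated positions. Named peaks are the 10 widest, the 10 earliest in the list, those nearest the gene ends and window edges, groups of 5 or more within 1 kb, the fullest 10 kb bin and the 3 longest gaps. The members, lists and measures were chosen with earlier results of these data known. Alternatives merged peaks, dropped narrow ones, took parts of the list or changed windows, distances and gene ends. Promoter sequence is from RefSeq on GRCm38, and no coordinates were converted.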

Additional observations from a re-analysis of the deposited data

How the results depend on the processing

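Of 68 alternative values, 52 stayed within the counting interval of the reported value, or within 1.5 times for a count, and no ratio changed direction. Some could not move: no flank peak is narrower than 50 bp, so dropping such peaks left flank values unchanged. The interval for the share of 220 kb windows was wide, 0.0357 to 1.06%. With midpoints within 1000 bp merged, the window held 46 regions, the gene body was 1.96 times as dense as the flanks, the median width was 1.86 times that of the chromosome (1.12 unmerged), and 87.0% of regions had the next within 10 kb. In the first 50% of the list the window held 46 peaks, the density ratio was 2.14 and 80.4% had the next within 10 kb. In the last 50% it held 52 peaks and the density ratio was 10.7. Fewer peaks enter these sets by construction. Of the upstream peaks 18 were in the first 50% and 5 in the last, and of the gene body peaks 21 and 42. Within 2 kb 71.4% had a next midpoint. Moving both gene ends by 5 kb gave density ratios of 4.24 outward and 4.31 inward. Ratios against a single flank, gene-length windows in steps and the comparison of dense windows were chosen after seeing the data. So were the cuts at 30 kb into the gene and 50 kb before it. The share of 220 kb windows at or above the Acan count ran from 0.0459% to 0.456%. No paired analysis was possible because there is 1 Jun list. Without depth or input values, a place without a peak cannot be taken as unbound.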
